A study of Mus musculus with 2 samples.

Results

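The 10 genes described here encode the Hippo pathway effectors Yap1 and Wwtr1 (Taz), the DNA-binding partners Tead1, Tead2 and Tead3, the kinase Lats2, and the target genes Ctgf, Cyr61, Ankrd1 and Amotl2. They were chosen by name, as the rows of the deposited table that carry one of these symbols, and all 10 were found among 33224 gene symbols. Each had 1 row, which named no other gene. Hepatic RNA came from male C57BL/6 mice, 48 hr after partial hepatectomy (PH), the surgical removal of most of the liver. Wild-type (WT) mice were compared with PPARβ-null (KO) mice, which lack the nuclear receptor PPARβ encoded by Ppard. The sample labels give an age of 4 months for both, and the series text gives 3 months. There was 1 library per genotype, so no value carries an error between mice, and the table assigns the libraries to different sequencing lanes, so that lane and genotype cannot be told apart. How the null allele was made, which part of the gene it removes and whether livers were pooled, was not given in the sources used here. The Ppard locus itself had 2.67 FPKM in WT against 2.42 in KO, with a WT/KO ratio of 1.10 (95% counting interval 0.967 to 1.26), so its total level does not tell the libraries apart.

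Hippo signalling is a kinase cascade that senses cell contact, polarity and tension. The kinases Stk3 and Stk4 (Mst2 and Mst1) with Sav1 activate Lats1 and Lats2 with Mob1 proteins, and the Lats kinases phosphorylate Yap and Taz, which are then held in the cytoplasm or degraded. Unphosphorylated Yap and Taz enter the nucleus, bind Tead factors and switch on genes such as Ctgf, Cyr61, Ankrd1 and Amotl2. In the liver the pathway is known for its control of organ size and of growth after resection, and Yap is high in bile duct cells. Since Yap and Taz are controlled mainly by phosphorylation and location, an mRNA level is not a measure of their activity.

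Values are FPKM, the number of sequenced fragments scaled to transcript length and to the size of the library, so that levels can be set side by side between genes. For a 1 kb transcript, a single fragment corresponded to an estimated 0.0186 FPKM in the WT and 0.0173 FPKM in the KO library. From this depth and the length of the annotated transcript, the fragments behind each value were estimated, and a 95% exact interval of each ratio was computed. Such intervals cover counting error only, in 2 libraries, and say nothing of the difference between mice. They are too narrow where the transcripts expressed were shorter than the annotated one used. A gene was counted as lower or higher in KO when its FPKM differed by more than 1.5-fold between the libraries and its mean FPKM was at least 0.1.

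Levels of 6 of the 10 genes lay within 1.5-fold of each other in WT and KO livers. Of the 10 genes, 2 were lower in KO by more than 1.5-fold, namely Wwtr1 and Cyr61, and 2 were higher, namely Tead2 and Ankrd1. In whole liver, fewer cells of a type and less RNA per cell cannot be told apart. All 10 genes passed the minimum of 0.1 FPKM. Among the 15727 genes of the table that did so, 26.0% were lower and 6.05% higher in KO by the same fold. The median log2 KO/WT, taken after adding 0.1 FPKM to each value, was -0.09 over the members and -0.25 over all genes, which is a WT/KO ratio of 1.19. This shift across the whole table moves with the scaling of the libraries, and once both libraries were centred on the median gene neither Wwtr1 nor Cyr61 stayed beyond 1.5-fold. Relative to the median of all genes, 7 of the 10 members lay on the higher side in KO. As deposited, the counting interval of the ratio included 1 for Yap1, Tead1 and Ankrd1 and lay to one side of 1 for the other 7 genes.

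**Figure D1:**
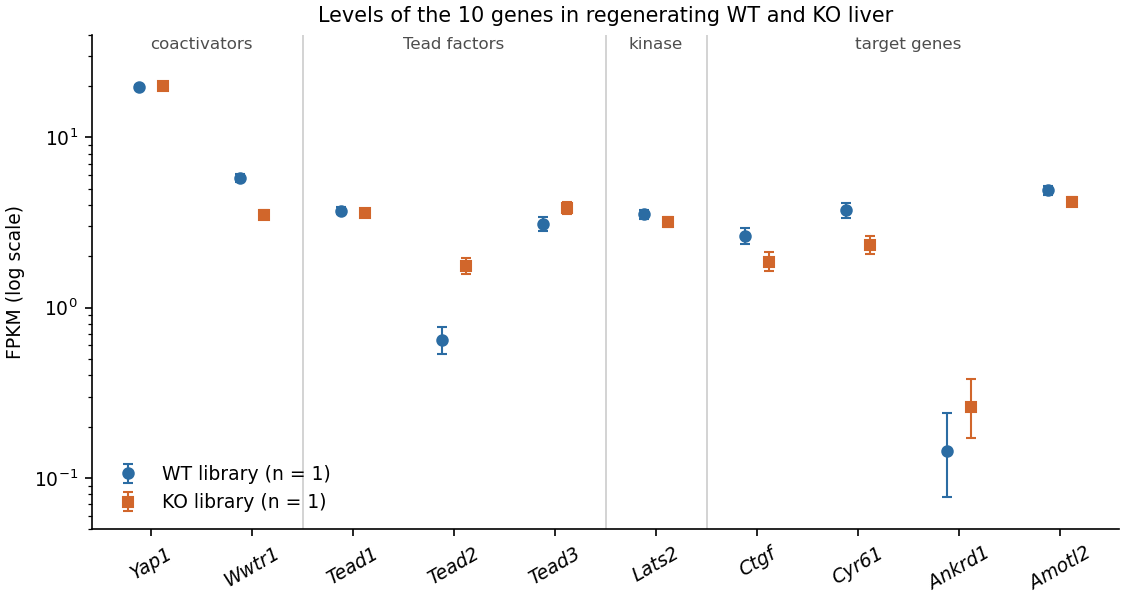
FPKM (log scale) of the 10 genes in the WT library (blue circles) and the KO library (orange squares), with 95% exact Poisson intervals that cover counting error only. Yap1 is the highest in both libraries at about 19.8 and 19.9 FPKM, Ankrd1 the lowest, and Tead2 shows the widest gap, with 0.644 FPKM in WT and 1.75 in KO.

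Yap1 was by far the most abundant member, followed in WT by Wwtr1, Amotl2, Cyr61, Tead1, Lats2, Tead3, Ctgf, Tead2 and Ankrd1. In KO the order after Yap1 was Amotl2, Tead3, Tead1, Wwtr1, Lats2, Cyr61, Ctgf, Tead2 and Ankrd1. Wwtr1 thus stood in the second place in WT and in the fifth in KO. Many neighbours in these orders could not be separated. The counting intervals of 4 of the 9 neighbouring pairs overlapped in WT, those from Cyr61 through to Ctgf, and 6 of 9 overlapped in KO.

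**Figure D2:**
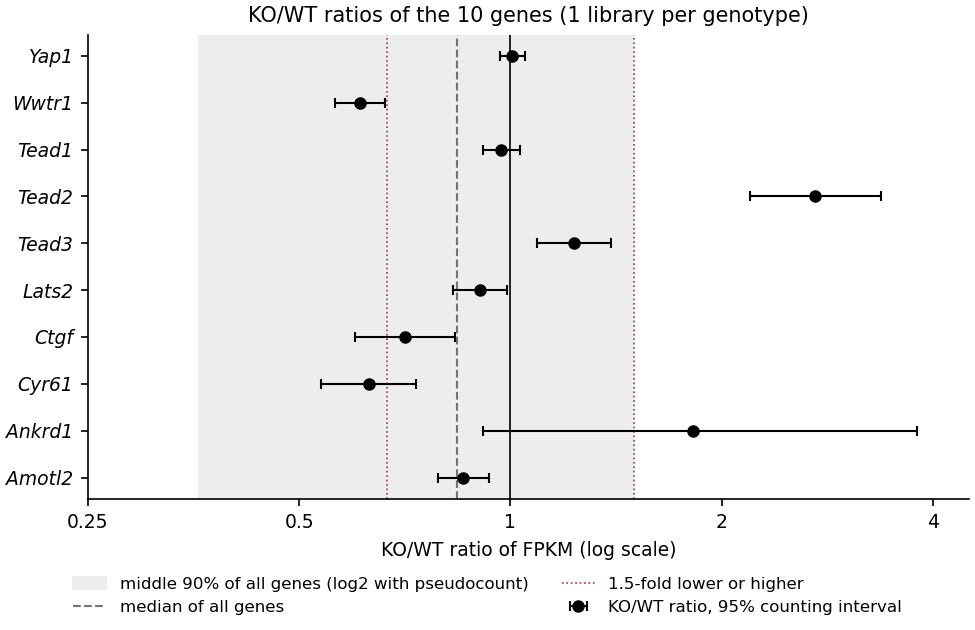
KO/WT ratio of FPKM (log scale) for each of the 10 genes, with its 95% counting interval from 1 library per genotype. The dashed line is the median of all genes, the shaded band the middle 90% of all genes and the dotted lines mark 1.5-fold. Tead2 (2.71) and Ankrd1 (1.82) lie above the band, while Wwtr1 (0.610) and Cyr61 (0.628) lie inside it. The band and the dashed line were computed after adding 0.1 FPKM to each value, and the points were not. With 0.1 FPKM added, the log2 KO/WT of Ankrd1 (0.5675) lay under the upper edge of the band (0.5816).

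The coactivators Yap1 and Wwtr1 encode the proteins through which the pathway acts on transcription, neither of which binds DNA alone. Yap1 (chromosome 9, 7932003 to 8004596, minus strand, NCBI37) had 19.8 FPKM in WT against 19.9 in KO, about 4444 and 4794 fragments. The KO/WT ratio was 1.01 (95% interval 0.965 to 1.05), so as deposited the libraries did not differ in Yap1 beyond counting error. This depends on the scaling. Log2 KO/WT of Yap1 was 0.24 once the libraries were centred on the median of expressed genes, and 0.28 with equal upper quartiles. Both values lie above the deposited counting interval, which ends at a log2 of 0.067. Wwtr1 (chromosome 3, 57259571 to 57379832, minus strand) had 5.75 FPKM in WT against 3.51 in KO, and was 1.64-fold lower in KO (95% interval 1.51 to 1.78). Of all genes, 20.8% had a still lower KO/WT ratio than Wwtr1, and 24.5% a higher ratio than Yap1. The level of Yap1 was 3.44 times that of Wwtr1 in WT and 5.67 times in KO, a comparison within each library that no scaling changes. Wwtr1 made up 22.5% of the summed FPKM of the pair in WT and 15.0% in KO.

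Promoters were searched for CATTCC, the core letters bound by Tead factors, and for the reverse complement GGAATG. The windows run from 250 bases before to 50 bases after each RefSeq start site (GRCm38.p6), and positions are counted from the start site as +1. These letters stood in 7 of the 8 members with an entry, against 16.6% of 27025 genes with at least 1 such window and 14.7% of 32851 windows. The 7 genes were Yap1, Wwtr1, Tead3, Lats2, Cyr61, Ankrd1 and Amotl2, and only in Tead2 was there no match. Entries for Tead1 and Ctgf were not used here. A gene with several start sites has more windows to match in, namely Tead3 with 3 and Wwtr1 and Lats2 with 2 each. The match in Lats2 begins at +5, after the start site, and in only 1 of its 2 windows. The members were chosen by name and include known targets of Yap and Taz with Tead factors. Their share of matches beside that of all genes therefore cannot be read as an enrichment found here. Matches are a description of letters, and binding was not measured. The windows around the matches of the coactivators are shown because both genes encode partners of Tead factors, with the matching letters in capitals. For Yap1 the stretch is chr9:8004702-8004767 and the match begins at -141, and for Wwtr1 it is chr3:57576011-57576076 and the match begins at -136 of its first start site, both on the minus strand.
Yap1: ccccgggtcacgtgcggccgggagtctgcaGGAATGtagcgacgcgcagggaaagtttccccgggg
Wwtr1: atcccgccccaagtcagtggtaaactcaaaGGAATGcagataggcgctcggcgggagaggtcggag

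The Tead factors bind DNA and recruit Yap or Taz. Tead1 (chromosome 7, 119822832 to 120050319, plus strand) had 3.71 FPKM in WT against 3.61 in KO, with a KO/WT ratio of 0.971 (95% interval 0.913 to 1.03). Tead2 (chromosome 7, 52471123 to 52489005, plus strand), a family member prominent in embryonic tissue, had 0.644 FPKM in WT against 1.75 in KO, about 118 and 343 fragments. It was 2.71-fold higher in KO (95% interval 2.20 to 3.38), the largest ratio among the members in either direction, and 1.34% of all genes had a higher KO/WT ratio. Tead2 stayed more than 1.5-fold higher in KO under both scalings of the libraries that were tried. Its 3′ end meets that of Cd37, a leukocyte gene on the opposite strand, and the authors' row for Tead2 gives a locus that spans both genes. Cd37 has a row of its own with 0.941 FPKM in WT against 1.28 in KO. Whether reads of Cd37 entered the value of Tead2 was not tested.

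Tead3 had 3.11 FPKM in WT against 3.83 in KO, and was 1.23-fold higher in KO (95% interval 1.09 to 1.39), while 10.7% of all genes had a higher ratio. It lies on chromosome 17 from 28468616 to 28487750 on the minus strand, with its 3′ end 30.2 kb from the end of Ppard, the gene targeted in the KO. The sources used here do not describe the region around the targeted allele, and its part in this value was not tested. Tead4, the other member of the family, was near the detection limit, with 0.0965 FPKM in WT against 0.121 in KO, about 16.0 and 21.5 fragments. Summed over the 4 Tead genes, the level was 7.57 FPKM in WT against 9.31 in KO. Tead1 made up 49.1% of this sum in WT and 38.8% in KO, Tead2 made up 8.51% and 18.8%, and the share of Tead3 was 41.1% and 41.2%. Between the libraries the shares of Tead1 and Tead2 thus differed, a comparison that no scaling changes. A share also falls when other genes of the sum are higher. As deposited, the FPKM of Tead1 hardly differed, while those of Tead2 and Tead3 were higher in KO.

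Tead3 has 3 RefSeq start sites, and the second holds 2 matches of the Tead letters only 3 bases apart, at -123 and -114. This stretch (chr17:28350679-28350753, minus strand) is printed for that doublet. A further match in the same window begins at +3 and lies outside the printed stretch.
Tead3: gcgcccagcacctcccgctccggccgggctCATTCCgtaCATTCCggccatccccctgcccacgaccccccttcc

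**Figure D3:**
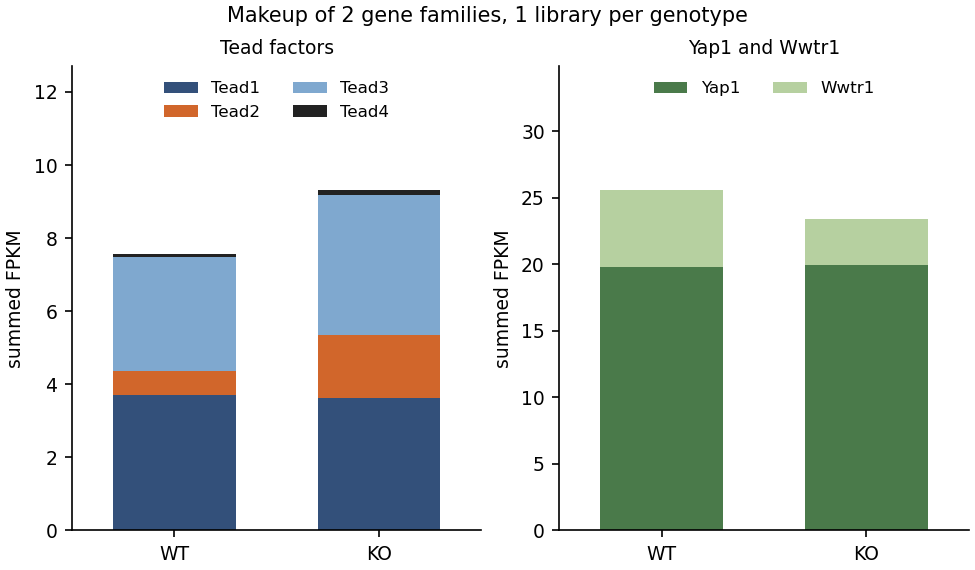
Summed FPKM of the 4 Tead genes (left) and of Yap1 and Wwtr1 (right) in 1 WT and 1 KO library, each bar divided by gene. The Tead sum is 7.57 in WT and 9.31 in KO, with a wider Tead2 segment in KO, whereas the coactivator sum is 25.6 in WT and 23.4 in KO, with a narrower Wwtr1 segment in KO.

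Lats2, the kinase that restrains Yap and Taz and is also induced by them, had 3.52 FPKM in WT against 3.19 in KO (chromosome 14, row from 58308500 to 58364960, minus strand). The WT/KO ratio of 1.10 had an interval of 1.01 to 1.21, and centring the libraries on the median gene turned the sign of the difference. Its paralog Lats1 had 6.46 FPKM in WT against 6.40 in KO. The rest of the core cassette was named for its role after its values were seen. Stk3 had 3.50 FPKM in WT against 3.52 in KO, and Stk4 had 5.74 and 4.60. The scaffold Sav1 had 6.42 and 5.10, and the Lats cofactors Mob1a and Mob1b had 13.5 and 11.1, and 12.2 and 10.0. None of these genes differed by more than 1.5-fold.

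The other 44 genes of the Hippo pathway were taken from a written list, of which 43 were in the table and 39 had a mean FPKM of at least 0.1. Of these 39 genes, 7 were lower in KO by more than 1.5-fold and none was higher, next to 26.0% and 6.05% of all genes. Both scalings of the libraries left 4 genes lower, and equal upper quartiles gave 1 higher. The shares of all genes under these scalings were not computed. The median log2 KO/WT was -0.33, close to the -0.25 of all genes. Map4k4, a kinase that can activate Lats1 and Lats2 in parallel to Stk3 and Stk4, differed most by far. It had 7.78 FPKM in WT against 1.505 in KO, about 2420 and 502 fragments, and was 5.17-fold lower in KO (95% interval 4.69 to 5.70). The Map4k4 gene lies on chromosome 1 from 39957758 to 40083155, and its row named no other gene. The kinases Taok1, Taok2 and Taok3, which act at the same level of the cascade, lay within 1.5-fold, with Taok2 at 25.7 FPKM in WT and 25.9 in KO in a row shared with another symbol.

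By role, and next to the 26.0% of all genes, 1 of 13 kinases, adaptors and activators of the core cascade was lower in KO, and that gene was Map4k4. Of the 10 membrane and junction proteins that passed the minimum, 3 were lower in KO. Among them were the large cadherin Dchs1, with 0.327 FPKM in WT against 0.163 in KO, and Wwc2, with 3.13 and 2.08. Wwc1 (Kibra), the most abundant of this group, had 22.0 in WT and 15.7 in KO. Among 13 proteins that bind or mark Yap, Taz or the Lats kinases, 2 were lower in KO, namely Amot, with 3.23 FPKM in WT against 2.05 in KO, and Ptpn14, with 0.368 and 0.234. Csnk1d, a casein kinase that helps to mark Yap for degradation, had 26.8 and 20.5. The remaining gene was Vgll3, a Tead partner with 0.158 FPKM in WT against 0.0662 in KO, about 28.2 and 12.7 fragments.

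Among the target genes of the pathway, Cyr61 and Ctgf encode secreted matricellular proteins of the CCN family that bind integrins. Cyr61 (chromosome 3, 145309935 to 145312949, minus strand) had 3.72 FPKM in WT against 2.34 in KO, about 406 and 274 fragments, and was 1.59-fold lower in KO (95% interval 1.36 to 1.86). Ctgf (chromosome 10, 24315248 to 24318489, plus strand) had 2.63 FPKM in WT against 1.86 in KO, and was 1.41-fold lower in KO (95% interval 1.20 to 1.67). Both differences lay in the same direction and both were common in size, since 22.4% of all genes had a lower KO/WT ratio than Cyr61 and 30.7% a lower one than Ctgf. The Ctgf gene overlaps the antisense gene Gm15270, with 0.435 FPKM in WT against 0.183 in KO, and reads of the pair cannot be told apart unless strand was kept, which the sources used here do not state.

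Amotl2 (chromosome 9, 102619002 to 102635748, plus strand), which encodes an angiomotin that binds Yap and feeds back on it, had 4.87 FPKM in WT against 4.18 in KO. The WT/KO ratio was 1.17 (95% interval 1.07 to 1.27), next to 1.19 for the median of all genes, and the direction turned once the libraries were centred. Ankrd1 (chromosome 19, 36186455 to 36194334, minus strand), an ankyrin repeat protein best known from heart muscle, had the higher value in KO, with 0.143 FPKM in WT against 0.260 in KO. These values rest on only about 13.6 and 26.5 fragments. The ratio of 1.82 had an interval of 0.913 to 3.79, so a difference in Ankrd1 was not detectable at this depth. Of the 4 targets, 3 lay below and 1 above a ratio of 1 as deposited (2 and 2 relative to the median of all genes), with a median log2 KO/WT of -0.35. The 1 above was Ankrd1, so the 3 targets with a difference beyond counting error all lay below 1 as deposited.

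The upstream stretches of 3 targets are shown, since the Tead letters stand in each of them on the side before the start site while the KO/WT ratios of the genes differ. For Cyr61 the stretch is chr3:145650046-145650135 on the minus strand, with the match at -103. For Ankrd1 it is chr19:36119905-36120074 on the minus strand, with matches at -210 and -123, and for Amotl2 it is chr9:102717654-102717803 on the plus strand, with the match at -65. A gene that was lower in KO, one without a detectable difference and one near the median of all genes thus share these letters.
Cyr61: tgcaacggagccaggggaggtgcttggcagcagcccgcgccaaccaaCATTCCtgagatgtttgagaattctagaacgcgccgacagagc
Ankrd1: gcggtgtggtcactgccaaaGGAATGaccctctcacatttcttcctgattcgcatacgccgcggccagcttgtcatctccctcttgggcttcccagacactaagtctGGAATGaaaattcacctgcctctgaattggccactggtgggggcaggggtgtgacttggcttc
Amotl2: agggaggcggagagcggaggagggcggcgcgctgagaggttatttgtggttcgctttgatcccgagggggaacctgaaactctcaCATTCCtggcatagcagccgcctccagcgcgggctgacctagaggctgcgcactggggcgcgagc

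A further 22 genes known as Yap and Taz targets in other cells were read from a written list, of which 19 had a mean FPKM of at least 0.1. More than 1.5-fold lower in KO were 9 of the 19, and none was higher, next to 26.0% and 6.05% of all genes. Centring left 6 lower and equal upper quartiles 5, and the share of all genes was not computed under either scaling. The median log2 KO/WT was -0.53. By far the widest gap was that of Birc5 (survivin), which acts in chromosome segregation and is high in dividing cells of any kind, with 25.5 FPKM in WT against 0.111 in KO. Without Birc5, a choice made after its value was seen, 8 of 18 genes were lower in KO and the median was -0.53. Ccdc80, a matrix protein gene, had 3.66 FPKM in WT against 1.14 in KO, Crim1 had 4.84 and 2.28, Asap1 had 2.74 and 1.51, and Myof had 0.384 and 0.150. Ccnd1, which encodes cyclin D1 and had the highest mean FPKM of these targets, had 21.3 FPKM in WT against 23.5 in KO. Nuak2, a kinase that is a target and a positive regulator of Yap, had 4.72 and 5.00. The stress gene Gadd45a had 4.90 and 3.36, and lay within 1.5-fold.

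**Figure D4:**
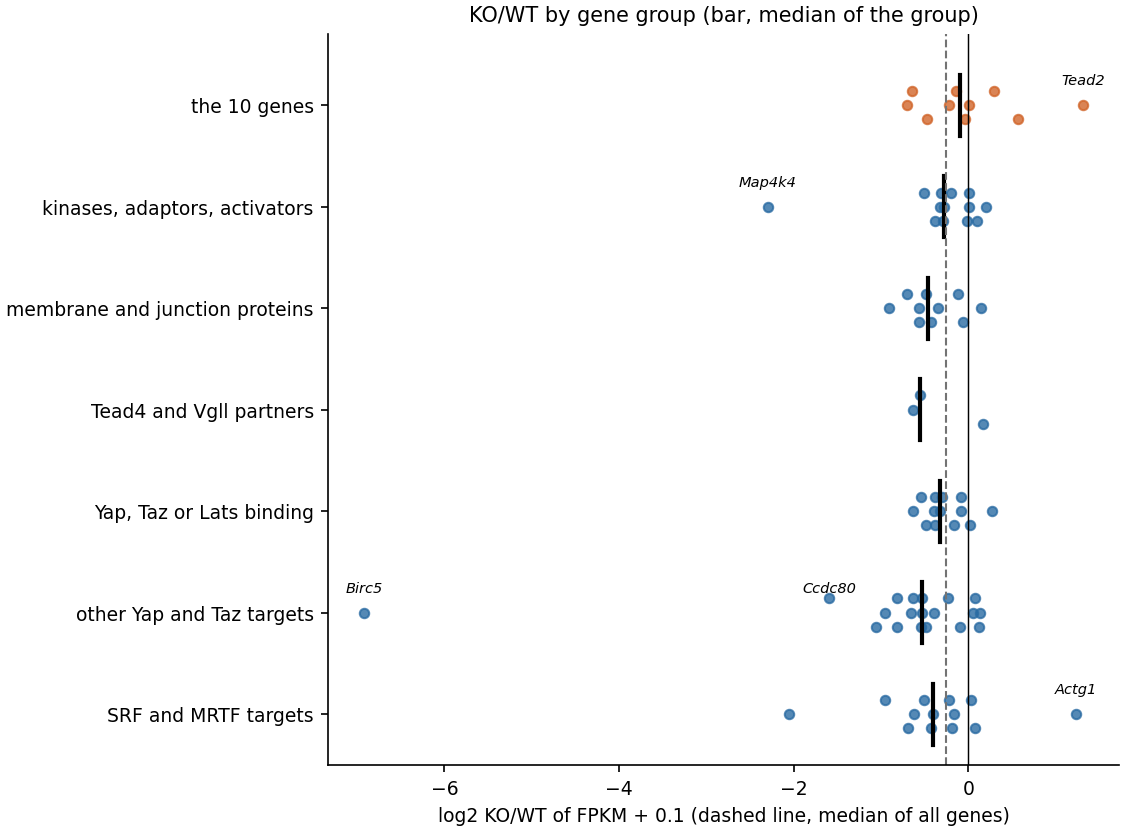
Log2 KO/WT of FPKM + 0.1 for each gene (points) of the 10 members, of 4 groups of other Hippo pathway genes, of other Yap and Taz targets and of SRF and MRTF targets, from 1 library per genotype. Black bars are group medians and the dashed line is the median of all genes at -0.25. Map4k4 and Birc5 lie far below their groups, and Tead2 lies highest among the members.

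Ctgf, Cyr61 and Ankrd1 are also known targets of the actin-regulated factors SRF and MRTF. Among 13 other SRF and MRTF targets above the minimum, 5 were lower and 1 was higher in KO by more than 1.5-fold, next to 26.0% and 6.05% of all genes, and the median log2 KO/WT was -0.40. Both scalings left 2 of these targets lower, and the share of all genes under each scaling was not computed. The most abundant of the targets differed among themselves, with 307 FPKM in WT against 313 in KO for Actb, 97.0 and 229 for Actg1, and 27.6 and 23.7 for Tpm1. The CArG box, the sequence that SRF binds, was absent from the windows of all 8 members with a promoter entry. It was present in only 1.81% of genes, so its absence from 8 genes does not set them apart. Ctgf was not among the 8, and control of these genes by SRF was not tested.

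Markers of several non-parenchymal cell types were lower in KO, the direction of Wwtr1, Cyr61 and Ctgf. All 11 markers of hepatic stellate cells had a lower value in KO as deposited, 10 of the 11 lay below the median of all genes, and 6 were lower by more than 1.5-fold, next to 26.0% of all genes. Acta2 is in this list and in that of SRF and MRTF targets, and is counted as lower in both. The stellate markers' summed FPKM was 126 in WT and 72.5 in KO, with 62.6 and 46.9 for Dcn, 14.5 and 3.18 for Col3a1, and 9.56 and 6.40 for Reln. Of 9 endothelial markers 5 were lower in KO by that fold, again next to 26.0% of all genes, with a sum of 67.7 in WT and 52.4 in KO, and with 21.8 and 18.9 for Clec4g, 15.7 and 14.5 for Eng (both in rows shared with another symbol), and 9.66 and 6.23 for Stab2. Relative to the median of all genes, 4 of these 9 lay on the higher side. All 4 mesothelial markers were lower in KO, with a sum of 4.80 and 1.64. Msln, the marker of the cells that cover the liver surface, had 1.81 FPKM in WT against 0.535 in KO, Upk3b had 1.60 against 0.557, and Gpm6a had 1.05 against 0.411.

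For the following lists too, 26.0% of all genes were lower and 6.05% higher in KO by more than 1.5-fold. Of the 6 cholangiocyte markers above the minimum, 3 were lower in KO, and 3 lay on the higher side of the median of all genes. The lower ones were Krt19, with 1.72 FPKM in WT against 0.559 in KO, Krt7, with 1.12 and 0.360, and Epcam, with 0.539 and 0.33. Spp1 had 24.5 FPKM in WT against 22.7 in KO, and Sox9 had 1.95 and 1.78. Of 7 Kupffer cell and macrophage markers 5 were lower in KO, with a sum of 54.0 in WT and 34.9 in KO, and with 18.4 and 10.8 for Cd5l, 17.3 and 10.6 for Clec4f, and 6.58 and 7.37 for Marco. All 4 neutrophil markers above the minimum were lower, with a sum of 15.0 and 7.91, and with 6.68 and 3.33 for S100a8, 6.11 and 3.48 for S100a9, and 1.88 and 0.957 for Retnlg. Ly6g was listed at 0 in both libraries. The hepatocyte markers did not share this direction. Of 8 such genes 2 were lower and 2 higher in KO, a share of lower genes close to that of all genes, and the sum was 16860 in WT and 17680 in KO, with 3337 and 4039 for Serpina1a, 2698 and 4534 for Fgb, and 3061 and 3503 for Apoa1. The lower genes were the urea cycle enzymes Ass1, with 2672 FPKM in WT against 982.5 in KO, and Cps1, with 1597 against 742.9. Alb and Trf were left out because the deposited table gives no estimate for them. The liver label was thus borne out by hepatocyte markers in both libraries. The part of these cell types in the values of Wwtr1, Cyr61 and Ctgf was not tested.

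**Figure D5:**
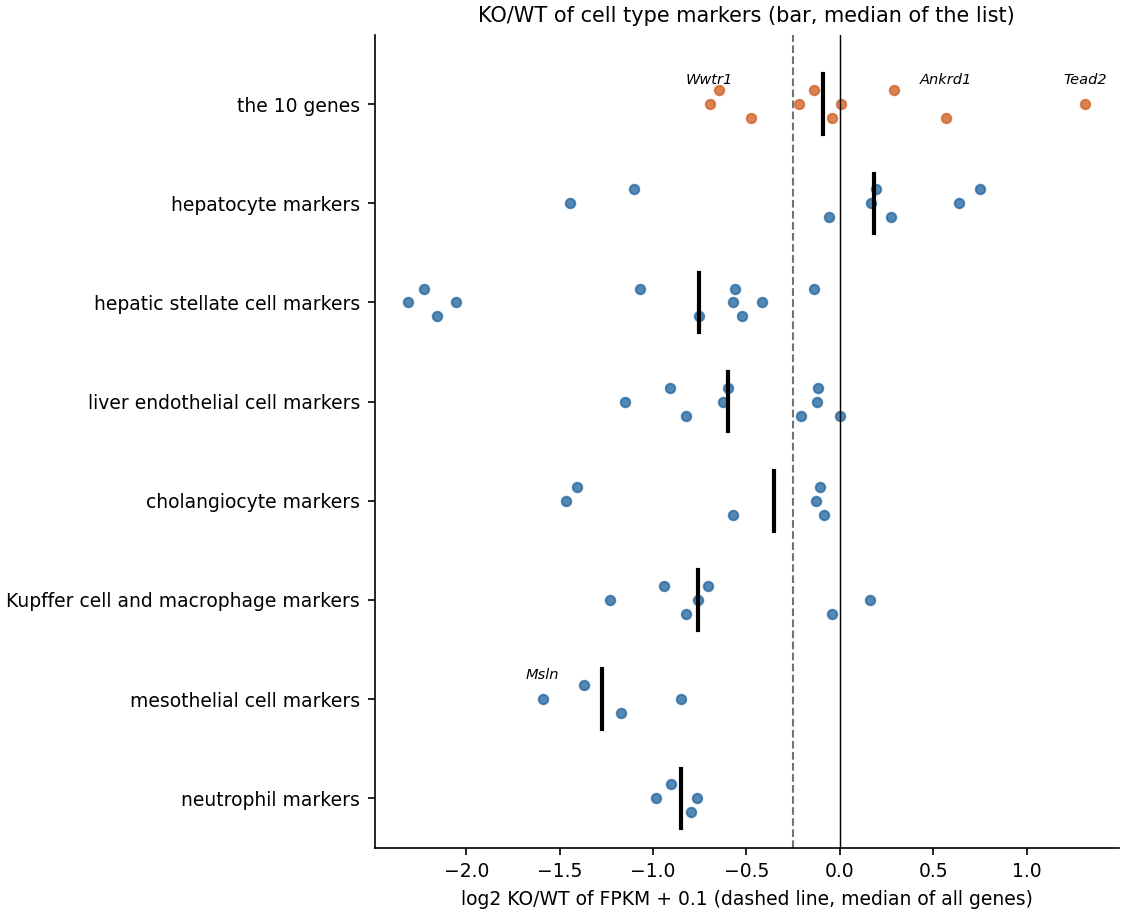
Log2 KO/WT of FPKM + 0.1 for each gene (points) of the 10 members and of 7 lists of cell type markers, from 1 library per genotype. Black bars are list medians and the dashed line is the median of all genes at -0.25. The stellate, endothelial, cholangiocyte, macrophage, mesothelial and neutrophil medians lie to the left of it, as does Wwtr1, and the hepatocyte median lies to the right.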

How the data were processed

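Hepatic RNA of 1 WT and 1 KO mouse liver sample was sequenced. The labels give paired end and the methods single end reads. The authors aligned reads with TopHat (2.0.0) to NCBI37 (mm9), assembled transcripts with Cufflinks (1.3.0) and ran Cuffdiff, and the deposited values are FPKM per locus. The sources do not say if quartile normalization was applied. The deposited table also holds the authors' own comparison (fold change, test statistic, p-value and q-value), which was not used.

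The table's 38016 loci included 21 marked HIDATA, listed at 0 and left out, and 2302 with no symbol. Loci naming several symbols numbered 850, and each symbol received the joint value. Rows of a symbol were summed. Coordinates are those of GENCODE vM1 on NCBIM37, counted from 1, except for promoter windows, which are RefSeq entries on GRCm38.p6. Of 33224 symbols, 32451 were in GENCODE vM1. Rows of neighbouring genes can share a locus, as those of Ctgf and Gm15270 do.

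Depth was estimated from 1639 single-exon genes of at least 1000 nt, whose FPKM times length piled up at 1 fragment (67 genes in WT, 70 in KO). An FPKM of 1 on 1 kb equals about 53.8 fragments in WT and 57.7 in KO. Fragments used the longest protein-coding transcript, ratio intervals were Clopper-Pearson and level intervals exact Poisson, both at 95% and for counting error only. Log2 ratios used a pseudocount of 0.1 FPKM, which understates changes of low genes, and counts a mean FPKM of at least 0.1. Steps were tested on simulated data in which the transcript lengths were known. With 1 library per genotype no test across samples was run. Counts past 1.5-fold stand beside the shares of all genes at the main settings only. The members and lists were chosen with earlier results of these data known.

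The genes named are the 10 members, Ppard, Tead4, the CCN family, from every other list the 3 genes of highest mean FPKM, and, for the Hippo and the Yap and Taz target lists, the 5 genes of largest fold each way beyond 1.5. A few genes selected in this way are not reported here. Those named beyond it (the core cassette, Taok1, Taok3, Wwc2, Ptpn14, Gadd45a, Cd37, Gm15270, Acta2, Krt19, Krt7, Epcam, Ass1, Cps1 and Ly6g) were named after their values were seen. Ajuba, Fjx1 and Ptpn14 are in both the Hippo and the target list, and Acta2 is in the SRF and MRTF and the stellate list. Computations used scipy 1.17.1, pandas 2.3.3 and numpy 2.4.6 under Python 3.11.15, with matplotlib 3.10.9 for plots.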

Additional observations from a re-analysis of the deposited data

How the results depend on the processing

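No paired analysis was possible because each genotype has a single library, which also leaves no replicate to leave out. Centred on the median of expressed genes, 0 members, 4 other Hippo genes and 2 SRF and MRTF targets were lower in KO by over 1.5-fold. With equal upper quartiles, 0 members, 4 Hippo genes, 5 other Yap and Taz targets and 2 SRF and MRTF targets were lower, and 1 Hippo gene was higher. Both scalings turned the sign of the members' median, to 0.14 and 0.18, and of Tead1, Lats2 and Amotl2. A fold of 2 left 0 members lower and 1 higher, with 3 Hippo genes, 4 targets and 1 SRF and MRTF target lower. The share of all genes past the fold was not recomputed under this or any other alternative. Whether such counts lie above or below that share was thus not tested. A mean FPKM of at least 1 left 1 member higher, since Ankrd1 was not counted, and 4 Hippo genes lower. The other alternatives were pseudocounts of 1 and 0.01 FPKM, no filter, 1 row per symbol and loci of several symbols left out, and under these every count stayed within 1.5 times its value. Across all alternatives log2 KO/WT was between 0.74 and 1.57 for Tead2, between -0.71 and -0.43 for Wwtr1 and between -0.67 and -0.38 for Cyr61. Leaving out Birc5 was added after seeing the data. Depth limits Ankrd1 most among the members, and Tead4, Vgll3, Nov, Wisp2 and Wisp3 among the other genes named.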

Other observations

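The relatives of Ctgf and Cyr61 in the CCN family were low in both livers. Nov had 0.0547 FPKM in WT against 0.0596 in KO, about 8.44 and 9.87 fragments. Wisp1, a target of Wnt signalling, had 0.393 and 0.324, with a WT/KO ratio of 1.21 (95% interval 0.912 to 1.61). Wisp2 had 0.229 in WT against 0.0377 in KO, about 21.2 and 3.74 fragments, and a WT/KO ratio of 6.08 with a counting interval from 2.00 to 25.8. Wisp3 had about 7.86 fragments in WT and was listed at 0 in KO. Cyr61 and Ctgf were thus the abundant members of this family in both libraries.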
